A study of Daphnia magna with 24 samples.

Results

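The calcium release channel and the calcium pump described here are 2 of the 14338 features on a microarray for Daphnia magna, a freshwater crustacean used in aquatic toxicology. Feature DM00540P2 is listed in the authors' deposited table as a ryanodine receptor, and feature DM00307P3 as calcium ATPase at 60A. Both were chosen by name and because they differed in opposite directions between animals exposed to dissolved silver and Control animals. That contrast is therefore described below without a test. No other feature on the array shares the ID stem of either one.

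Whole animals were exposed for 24 h to dissolved silver (Ag+) or to a suspension of silver nanowires, at 1/10 of the LC50, the concentration lethal to 50% of animals. Long and short wires were each tested with a polyvinylpyrrolidone (PVP) and with a silica coating, as S-SiO2-NW and L-SiO2-NW for silica and as S-PVP-NW and L-PVP-NW for PVP. Control animals were kept in COMBO medium, in which all animals were raised, without added silver. With Control this makes 6 groups of 4 single-colour arrays, 24 in all, and each exposed replicate held about 20 animals. Clone, age and sex of the animals were not given in the sources used here, and neither was whether replicates came from separate cultures, so p-values measure the spread between these arrays.

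In muscle, the ryanodine receptor is the channel through which calcium leaves the sarcoplasmic reticulum to start a contraction. The pump of the SERCA family, encoded by the Ca-P60A gene in Drosophila, uses ATP to return that calcium to the store so that the muscle relaxes. Calmodulin and troponin are calcium-binding proteins that pass the calcium signal on, and calreticulin binds calcium inside the store. The arrays were made from whole animals, so fewer muscle cells and less RNA per cell cannot be told apart.

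The probes are shown because every value of the channel and the pump is the brightness of 1 of these 50-base sequences. The third belongs to DM01730P3, a further feature listed as a calcium-transporting ATPase. All are printed in the order deposited, taken as 5′ to 3′, with no part marked in capitals.
DM00540P2, ryanodine receptor: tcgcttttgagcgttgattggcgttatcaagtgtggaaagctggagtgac
DM00307P3, calcium ATPase at 60A: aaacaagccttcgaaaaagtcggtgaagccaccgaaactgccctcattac
DM01730P3, calcium-transporting ATPase: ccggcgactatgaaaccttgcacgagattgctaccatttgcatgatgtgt
Each of these 3 probes has 24 G or C bases of 50 (48%), against a median of 50% over the 1826 probes in the authors' deposited table. The longest run shared by the channel probe and the pump probe is 4 or 5 bases on either strand.

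The names rest on short database matches. In the authors' deposited table the transcript behind DM00540P2 matched a ryanodine receptor of the cockroach Periplaneta americana over 49 amino acids, of which 30 were identical (61%, expectation value 0.00000001). The transcript behind DM00307P3 matched a calcium ATPase of the frog Xenopus laevis over 46 amino acids, of which 28 were identical (60%, expectation value 4E-11). Its match to a Daphnia pulex assembly was longer, with 496 of 578 bases identical (85%, expectation value 1E-140). That of DM00540P2 was short, with 47 of 55 bases identical (85%, expectation value 0.00004). Which muscle, nerve or other isoform either feature reports was not given in the sources used here.

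Deposited intensities are scanner brightness in arbitrary units, not scaled between arrays. Array medians ran from 60 to 72, and log2 intensities of replicate arrays correlated across features at 0.916 to 0.976. A feature is called dim on an array where it lies below 2 times that array's lower quartile. The pump was above this limit on all 24 arrays, and the channel was dim only on Control 3. The 1st percentile of intensity, called the array floor, was 45 to 46 in Ag+, 41 to 43 in both S-PVP-NW and L-SiO2-NW and 42 to 45.37 in S-SiO2-NW, against 46 to 50 in Control. Slide and scan were not given in the sources used here, so they cannot be told apart from those 3 exposures.

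In dissolved silver the channel was brighter and the pump dimmer than in Control. The ryanodine receptor read 359, 376, 735 and 559 on the Ag+ arrays, against 112, 148, 83 and 137 on the Control arrays. Every Ag+ array was above every Control array, by a margin wider than the whole Control range. The mean was 507.2 ± 177 in Ag+ and 120 ± 28.9 in Control (SD, n = 4 each), a ratio of 4.23. After background correction and quantile normalisation the difference was 1.65 on the log2 scale (SE 0.26), or 3.15-fold, where an added offset pulls dim values together. These values chose the feature and are a description.

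The calcium pump read 619, 276, 346 and 247 on the Ag+ arrays, against 1479, 1013, 870 and 738 on the Control arrays. Again the groups did not overlap, here with Ag+ below Control. Ag+ 1 stood nearest to Control. The mean was 372 ± 170 in Ag+ and 1025 ± 323 in Control (SD, n = 4 each), 0.363 of the Control mean. On the normalised log2 scale the difference was −1.97 (SE 0.35), or 3.91-fold lower in Ag+. Over all features in this contrast, 17.8% passed the limma test at an adjusted p of 0.05, with 10.3% higher and 7.53% lower, and the intensities of 9.69% of features were all higher and of 9.11% all lower than in Control.

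**Figure D1:**
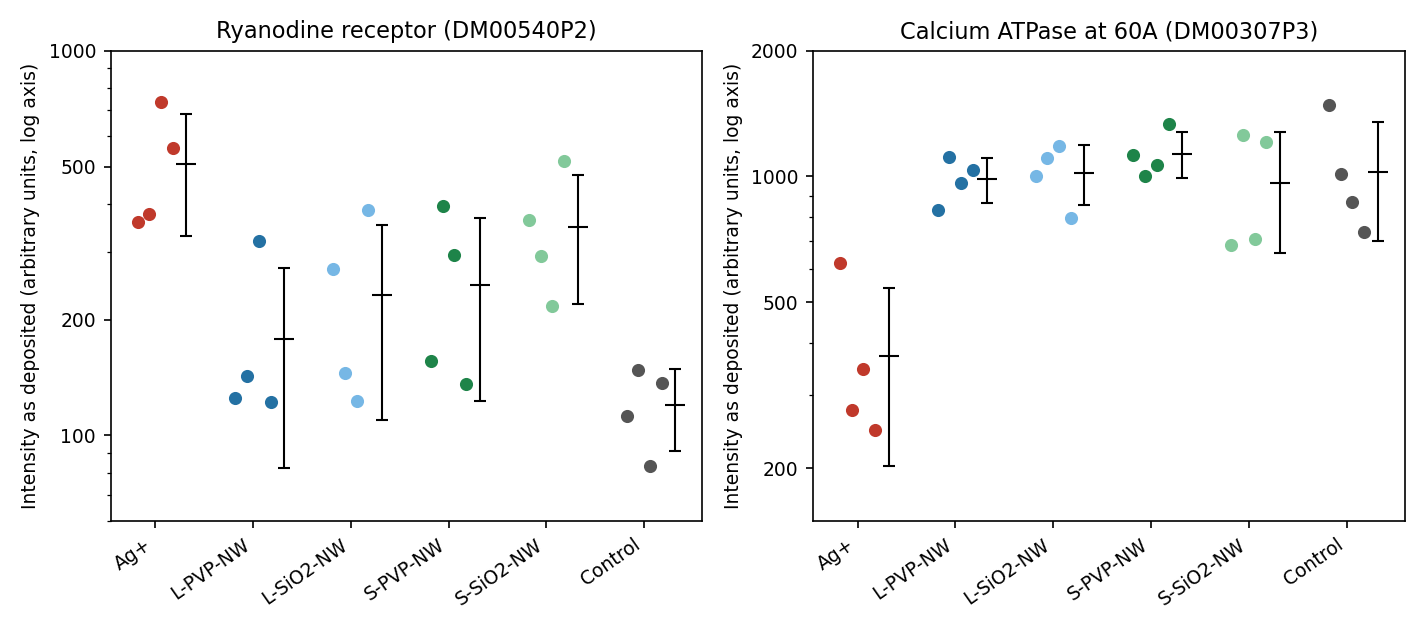
Deposited intensity (log axis, arbitrary units) of the ryanodine receptor feature DM00540P2 and the calcium ATPase feature DM00307P3 on each of the 24 arrays by group, with points for arrays and a line for each group mean. The Ag+ arrays sit at 359 to 735 for the channel and at 247 to 619 for the pump, with no overlap with Control in either panel.

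In short silica-coated nanowires the channel rose and the pump did not pass the test. The ryanodine receptor read 362, 292, 217 and 518 on the S-SiO2-NW arrays, against the 83 to 148 of Control. All 4 exposed arrays were brighter than all 4 Control arrays, as was the case for 10.5% of all features in this contrast. The mean was 347.2 ± 128 in S-SiO2-NW and 120 ± 28.9 in Control (SD, n = 4 each), a ratio of 2.89. The normalised difference was 0.95 on the log2 scale (SE 0.26, 95% interval 0.41 to 1.49), or 1.93-fold, with an adjusted p of 0.0417 from limma over all features. In this contrast 4.74% of all features passed, with 2.82% of all features higher and 1.92% lower. The Control arrays also entered the contrast that chose the feature, so the result is not free of that choice.

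The call for the channel in S-SiO2-NW depended on single arrays and on the fit. Without Control 1, 2, 3 or 4 the adjusted p from limma was 0.0828, 0.0538, 0.116 and 0.0554, and without S-SiO2-NW 1 or 4 it was 0.111 and 0.116, none of which passes, while the difference stayed between 0.81 and 1.09. Over the 19 alternatives run, 8 passed, and the adjusted p ranged from 0.0269 to 0.503.

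The calcium pump read 684, 1260, 709 and 1207 on the S-SiO2-NW arrays, against 1479, 1013, 870 and 738 on the Control arrays. The groups overlapped, and the mean of 965 ± 311 in S-SiO2-NW was 0.942 of the 1025 ± 323 in Control (SD, n = 4 each). On the normalised scale the difference was −0.77 (SE 0.35, 95% interval −1.51 to −0.03), with an adjusted p of 0.221 and an unadjusted p of 0.0425 in limma. With median centring it was −0.18, so its size depended on the scaling between arrays.

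The other nanowire groups did not separate from Control for the channel. The ryanodine receptor read 156, 395, 294 and 136 in S-PVP-NW, so that 3 arrays lay above the highest Control array of 148 and 1 lay below it. Its difference from Control was 0.65 on the log2 scale (95% interval 0.11 to 1.19, unadjusted p = 0.0208, adjusted p = 0.252 in limma). In L-PVP-NW it read 125, 143, 320 and 122, with replicate C alone above the Control range. The difference was 0.49 (−0.05 to 1.03, limma adjusted p = 0.597). In L-SiO2-NW it read 271, 145, 123 and 385, with 2 arrays inside the Control range and 2 above it. Here the difference was 0.45 (−0.09 to 0.99, limma adjusted p = 0.407). Over all features, 1.35% passed in S-PVP-NW, 0.0279% in L-PVP-NW and 0.962% in L-SiO2-NW, each against Control.

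The pump in the same 3 groups stayed within the range of the Control arrays. It read 1124, 1004, 1068 and 1333 in S-PVP-NW, 830, 1114, 966 and 1038 in L-PVP-NW, and 1004, 1106, 1182 and 796 in L-SiO2-NW. All 12 values fall between the lowest Control array of 738 and the highest of 1479. The normalised differences from Control were −0.25 in S-PVP-NW (95% interval −0.99 to 0.49, adjusted p = 0.834), −0.04 in L-PVP-NW (−0.78 to 0.70, 0.985) and −0.48 in L-SiO2-NW (−1.22 to 0.26, 0.540), all from limma. The intervals still allow a fall of the pump by 1.22 log2 units in L-SiO2-NW, so similar levels are not shown. With median centring the S-PVP-NW value was 0.10, so its sign depended on scaling.

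**Figure D2:**
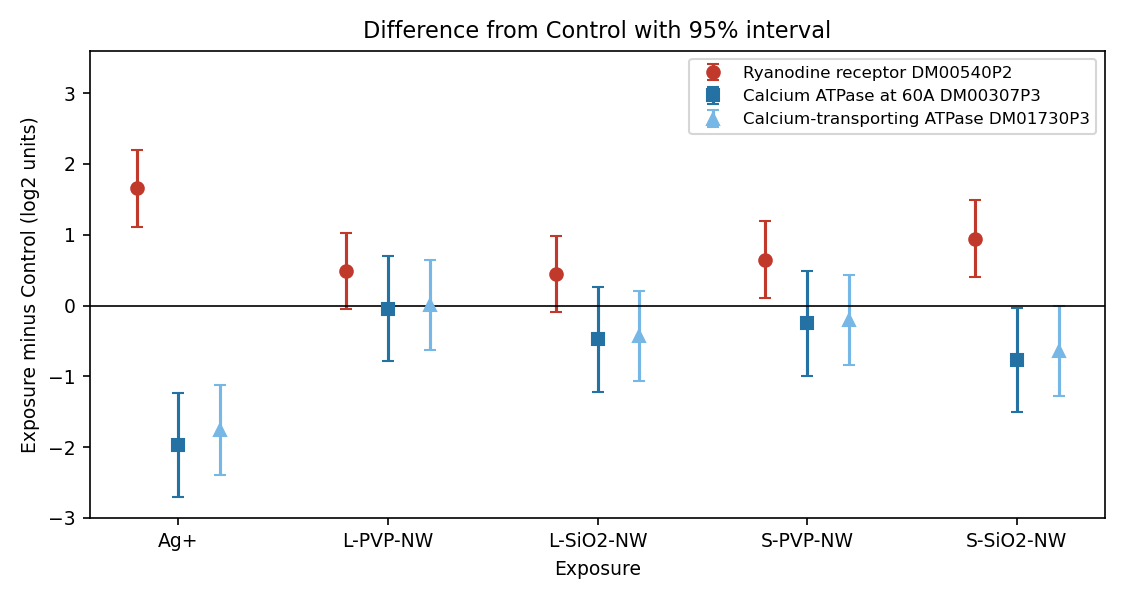
Difference from Control (log2, normalised) of the channel, the pump and the further pump feature DM01730P3 in each exposure. Bars are 95% intervals from the limma fit on 24 arrays. The channel runs from 0.45 in L-SiO2-NW to 1.65 in Ag+. The pump DM00307P3 runs from −1.97 in Ag+ to −0.04 in L-PVP-NW, and DM01730P3 lies at −1.75 in Ag+. The Ag+ values chose the channel and DM00307P3, and no test is given in Ag+ for any feature shown.

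Ordered by normalised level, the channel was highest in Ag+ with a mean log2 intensity of 8.80 ± 0.24, followed by S-SiO2-NW with 8.10 ± 0.40 and S-PVP-NW with 7.80 ± 0.50 (SD, n = 4 each). L-PVP-NW with 7.64 ± 0.32 and L-SiO2-NW with 7.60 ± 0.48 came next, and Control with 7.15 ± 0.27 was lowest. Intensities of neighbours in this order overlapped at every step. The pump ran the other way at its low end, with Ag+ lowest at 8.34 ± 0.68 and S-SiO2-NW next at 9.54 ± 0.23. The mean was 9.83 ± 0.54 in L-SiO2-NW, then 10.06 ± 0.43 in S-PVP-NW, 10.26 ± 0.48 in L-PVP-NW and 10.31 ± 0.64 in Control. Only Ag+ lay apart from its neighbour, at 247 to 619 in Ag+ against 684 to 1260 in S-SiO2-NW. Set side by side with Ag+, the channel was 0.71 log2 units lower in S-SiO2-NW, 1.01 in S-PVP-NW, 1.17 in L-PVP-NW and 1.21 in L-SiO2-NW, and the pump was higher by 1.20, 1.72, 1.93 and 1.49 in the same groups.

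Coating and length were compared among the nanowires alone, which uses no array of the contrast that chose the features. None of the 10 comparisons of either feature passed in limma. For the channel, silica against PVP coating gave 0.30 in short wires (95% interval −0.24 to 0.84, adjusted p = 0.703) and −0.04 in long wires (−0.58 to 0.50, 0.957). Long against short wires gave −0.50 with silica (−1.04 to 0.04, adjusted p = 0.909 in limma) and −0.16 with PVP (−0.70 to 0.38, 0.859). Intervals of this width leave room for differences of about the size seen between S-SiO2-NW and Control.

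The pump gave −0.52 for silica against PVP in short wires (95% interval −1.26 to 0.22, limma adjusted p = 0.587) and −0.44 in long wires (−1.18 to 0.30, 0.538). Long against short wires gave 0.29 with silica (−0.45 to 1.03, limma adjusted p = 0.999) and 0.21 with PVP (−0.53 to 0.95, 0.871). The interaction of coating and length was −0.34 for the channel (−1.10 to 0.42, limma adjusted p = 0.912) and 0.08 for the pump (−0.96 to 1.13, 0.996). Over all features 4.78% passed for coating in long wires, 0.900% for coating in short wires, 2.15% for length with PVP, 0.0349% for length with silica and 0.0209% for the interaction. Doses were each set from the LC50 of that wire, so silver mass may differ between these groups and was not tested.

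The ratio of channel to pump on the same array does not change when all values of an array are multiplied by a common factor. Taken as a log2 difference of unscaled intensities and set against the Control mean, it was 3.56 ± 0.906 in Ag+ and 1.59 ± 0.526 in S-SiO2-NW, against 0 ± 0.585 in Control (SD, n = 4 each). It ranged from 2.293 to 4.258 over the Ag+ arrays and from 0.970 to 2.161 over the S-SiO2-NW arrays, against −0.644 to 0.650 in Control. These 3 groups did not overlap, which is given without a test because both features were chosen for this pattern. S-PVP-NW with 0.742 ± 0.892, L-PVP-NW with 0.485 ± 0.683 and L-SiO2-NW with 0.796 ± 1.01 each overlapped Control. In S-SiO2-NW the unscaled mean of the channel was 2.89 times that of Control, while that of the pump was 0.942 times. The ratio is not free of array brightness. Within groups the unscaled channel rose with the upper quartile of intensity of the array (r of 0.845), against −0.12 for the unscaled pump. Upper quartiles were 144 to 215 in S-SiO2-NW and 101 to 158 in Control. The part of array brightness in the ratio was not tested.

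Within groups the features also moved against each other, and both moved with the brightness of the array. Deviations of the normalised channel and pump from their group means correlated over the 24 arrays at Pearson's r of −0.541 (p = 0.00948, adjusted p = 0.0118, two-sided permutation test with 100000 draws within groups) and Spearman's rho of −0.585 (p = 0.0069, adjusted p = 0.00901). Without the 2 arrays farthest from the median of the channel, r was −0.458. The rule that chose the features set group means against each other and did not use these deviations. However, the upper quartile of intensity of an array correlated with the normalised channel at r of 0.604 (p = 0.00617, adjusted p = 0.0103) and with the normalised pump at −0.691 (p = 0.00142, adjusted p = 0.00355) by the same permutation test. Without the 2 arrays farthest from the median of the upper quartile these were 0.626 and −0.58, and rho was 0.601 (p = 0.00721, adjusted p = 0.00901) and −0.657 (p = 0.0039, adjusted p = 0.00901).

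With the upper quartile as a covariate, the correlation of channel and pump was −0.214 (permutation p = 0.455), and with median centring it was −0.345 (permutation p = 0.0982), so it did not hold under either. On unscaled intensities the channel correlated with the upper quartile at r of 0.845 (p = 5e-05, adjusted p = 0.00025) and rho of 0.817 (p = 3e-05, adjusted p = 0.00015), and at 0.844 without the 2 farthest arrays. The unscaled pump gave r of −0.12 (p = 0.62, adjusted p = 0.62) and rho of −0.11 (p = 0.649, adjusted p = 0.649), and −0.0231 without those arrays, all by the same permutation test. These 5 relations were adjusted together, and those with the upper quartile were added after the values were seen. Upper quartiles ran from 126 to 168 in Ag+, 144 to 215 in S-SiO2-NW, 124 to 163 in S-PVP-NW, 131 to 193 in L-SiO2-NW and 107 to 165 in L-PVP-NW, against 101 to 158 in Control. The ranges of S-SiO2-NW and Control overlap only between 144 and 158. With the upper quartile as a covariate the channel differed from Control by 0.52 in S-SiO2-NW (limma adjusted p = 0.503).

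**Figure D3:**
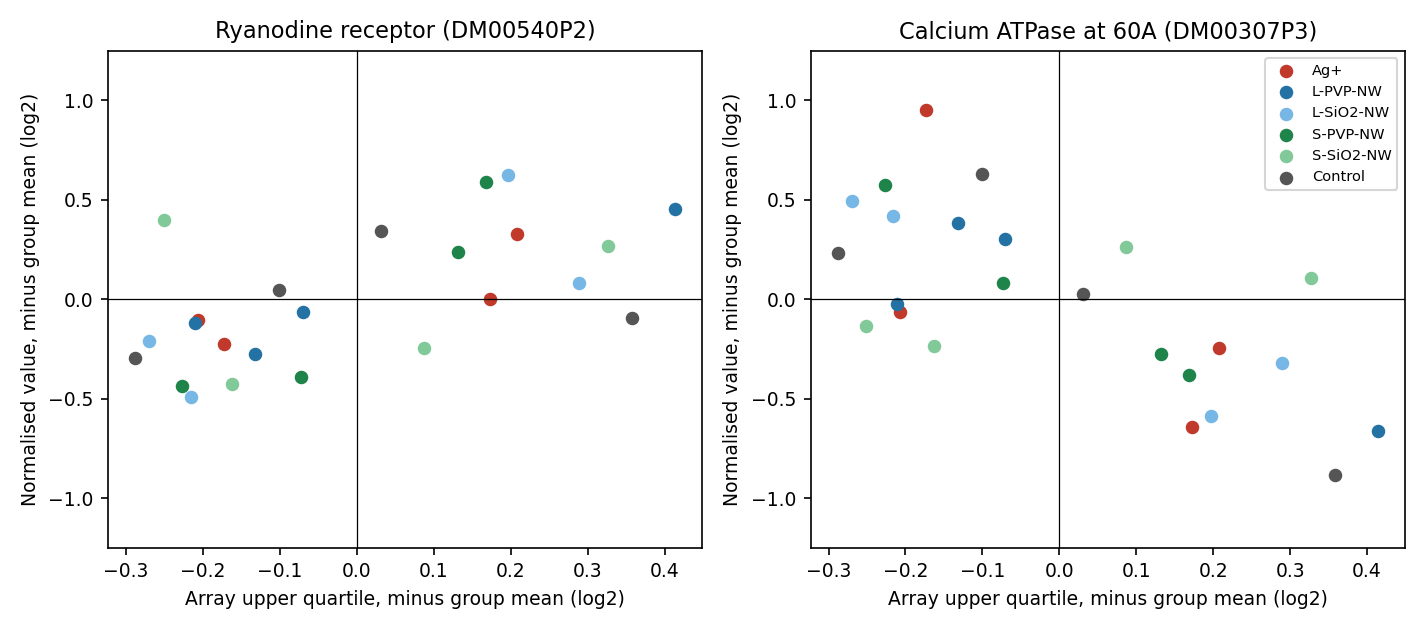
Deviation of the normalised channel and pump from their group means (log2) against the deviation of the log2 upper quartile of intensity of the array, with 1 point for each of the 24 arrays. The channel lies higher on brighter arrays (r of 0.604) and the pump lower (r of −0.691).

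A further feature with a calcium pump name gave nearly the same values as DM00307P3. DM01730P3 read 494, 240, 285 and 219 on the Ag+ arrays, against 1016, 745, 633 and 572 on the Control arrays. As for DM00307P3, the groups did not overlap and Ag+ 1 was the brightest Ag+ array. In S-SiO2-NW it read 489, 903, 608 and 1170, overlapping Control. Its normalised difference from Control was −1.75 in Ag+, −0.64 in S-SiO2-NW (limma adjusted p = 0.236), −0.21 in S-PVP-NW (0.841), −0.43 in L-SiO2-NW (0.517) and 0.00 in L-PVP-NW (0.996). After centring, its root mean square difference from DM00307P3 over the 24 arrays was 0.140 log2 units, the smallest among 492 described features, where the spread of DM00307P3 itself was 0.809.

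In the authors' deposited table both pump features match the same Daphnia pulex assembly, DM00307P3 at positions 69 to 646 and DM01730P3 at positions 1 to 499. The stretches overlap, and 427 of 509 aligned bases were identical for DM01730P3 (83%). Whether both probes report 1 transcript or near-identical copies cannot be told from these files, so DM01730P3 is not counted as a separate observation of the pump, and its Ag+ value is given without a test.

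**Figure D4:**
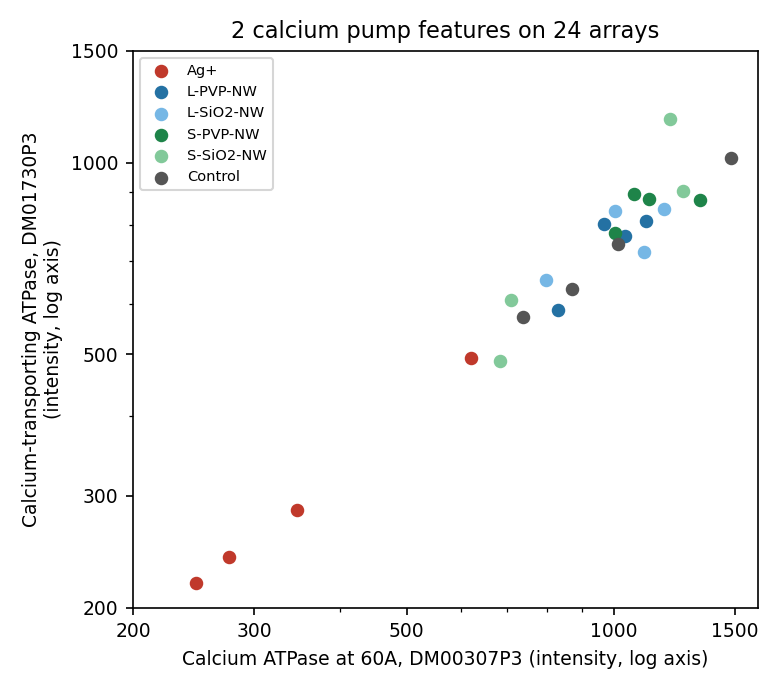
Intensity (log axes, arbitrary units) of the pump features DM01730P3 and DM00307P3 on each of the 24 arrays, coloured by group. The points follow 1 line, with the Ag+ arrays at the dim end at 219 to 494 for DM01730P3 and 247 to 619 for DM00307P3.

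Next to the pump in likeness came a myosin heavy chain (DM02391P3), the motor of the thick filament, at 0.316 log2 units over 24 arrays. Ribosomal protein subunit 3 (DM01652P2) at 0.351, myosin heavy chain isoform B (DM02533P1) at 0.353 and ribosomal protein L7 (DM01657P4) at 0.390 followed. The features nearest to the channel, whose own spread was 0.608, mostly carry no informative name. They were a hypothetical protein (DM00388P4) at 0.274, predicted proteins DM05863P1 at 0.284 and DM02453P3 at 0.322, a zinc finger protein (DM00371P3) at 0.303 and a feature similar to CG7986 (DM02296P3) at 0.330. All these likenesses, that of DM01730P3 included, keep the differences between groups. The Ag+ and Control values that chose the channel and the pump therefore enter them. Candidates were described features of the authors' deposited table alone, so the neighbours are a description.

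The other calcium-binding features with a significant match (expectation value of 0.001 or less) were lower in Ag+, and some in S-SiO2-NW. Of 4 buffers and chaperones, 4 fell and 0 rose in Ag+, with a median of −0.90, against 0.01 over all features, where 7.53% fell. The calreticulin features among them, DM00482P3 and DM00749P3, match overlapping stretches of the same Daphnia pulex assembly in the authors' deposited table, so they may report 1 transcript and are not separate observations. In S-SiO2-NW 2 of the 4 fell and 0 rose, with a median of −0.70, against 0.01 over all features, where 1.92% fell. In the other nanowire groups 0 of the 4 passed, with medians of −0.35 in S-PVP-NW, −0.01 in L-PVP-NW and −0.59 in L-SiO2-NW. Features with such a match were called often in general. Of all 493 of them, 160 were lower and 78 higher in Ag+, and 53 were lower and 28 higher in S-SiO2-NW. The authors' deposited table, from which the names come, lists changes on these same arrays, so the counts are not independent evidence. Leaving out single arrays gave 2 to 4 falls among the buffers in Ag+ (2 without Control 1, Control 3, Ag+ 3 or Ag+ 4) and 0 to 3 in S-SiO2-NW (0 without Control 1, Control 3 or S-SiO2-NW 4, 1 without Control 2 or S-SiO2-NW 1, 2 or 3, and 3 without Control 4), and 0 passed in S-SiO2-NW with the upper quartile or the array floor as a covariate.

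Calreticulin (DM00482P3), which binds calcium in the store, read 91.8 ± 24.5 in Ag+ and 126 ± 19.0 in S-SiO2-NW, against 175 ± 26.5 in Control (SD, n = 4 each). It fell by 1.13 log2 units in Ag+ (limma adjusted p = 0.00513), where 3 of 4 arrays were dim, and by 0.91 in S-SiO2-NW (0.0486). Calmodulin (DM02447P1), the calcium sensor that activates many enzymes, read 77 ± 3.92 in Ag+ and 89.2 ± 11.9 in S-SiO2-NW, against 121 ± 12.5 in Control. That name rests on a match over only 16 amino acids, all identical (expectation value 8E-11). The fall of calmodulin was 0.77 in Ag+ (limma adjusted p = 0.00354), where it was dim and at least 1.33-fold lower. In S-SiO2-NW, where 3 of 4 arrays were dim, the fall was 0.74 (limma adjusted p = 0.0205). Unlike the channel, both were lower than Control in both groups. Both were named because they passed in a nanowire contrast, so their S-SiO2-NW calls follow from that choice. In S-SiO2-NW the calreticulin call was lost without any 1 of 7 of the 8 arrays (adjusted p = 0.0611 to 0.152), all but Control 4, and with median centring (0.0639), and the calmodulin call was lost without Control 1 (0.0649), Control 3 (0.0731) or S-SiO2-NW 4 (0.0681), all in limma.

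The feature listed as troponin I (DM06174P3), which holds back contraction until calcium binds its complex, missed the limit for a significant match, with an expectation value of 0.002. It read 684.8 ± 234 in Ag+ and 1086 ± 861 in S-SiO2-NW, against 1521 ± 195 in Control (SD, n = 4 each), and fell by 1.71 (limma adjusted p = 0.00663) and by 1.54 log2 units (0.0366). Neither call held with median centring, at −1.16 in Ag+ (limma adjusted p = 0.0777) and −0.96 in S-SiO2-NW (0.164), and the S-SiO2-NW call was lost without any 1 of 6 arrays (0.0605 to 0.0976), all but Control 4 and S-SiO2-NW 2. Troponin I was named because it passed in a nanowire contrast, so its S-SiO2-NW call follows from that choice. No feature of the calcium effector list had a significant match.

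Levels of muscle features are set beside the pump because the animals were measured whole. Of 15 features with a muscle or actin name, 11 fell and 0 rose in Ag+, with a median of −1.26, and 5 fell and 0 rose in S-SiO2-NW, with a median of −0.71. Over all features 7.53% fell in Ag+ and 1.92% in S-SiO2-NW, and among the 493 features with a significant match 160 and 53 did. In the other nanowire groups 0 passed, with medians of −0.52 in S-PVP-NW, −0.22 in L-PVP-NW and −0.49 in L-SiO2-NW. The count in Ag+ was 11 without each Ag+ or Control array in turn, and with median centring it was 9 lower and 2 higher, with a median of −0.85. In S-SiO2-NW it was 1 without Control 3, 2 without S-SiO2-NW 1, 3 or 4, 3 without Control 1 or 2, and 0 with the upper quartile or the array floor as a covariate. With median centring 3 passed there, and the median was −0.06. The list was made by words and holds an actin-depolymerising factor and a muscle fatty acid binding protein beside the contractile proteins. It also holds beta actin (DM02014P1) and myosins listed as non-muscle or smooth-muscle (DM01615P1, DM02391P3), so it is not muscle alone. The paramyosin features DM02599P2 and DM02640P3 match overlapping stretches of the same Daphnia pulex assembly, so they may report 1 transcript. The summed intensity of the list was 10512 to 17503 in Ag+ and 10236 to 20539 in S-SiO2-NW, against 7349 to 15876 in Control, which overlap. A few bright members make up most of the sum, among them the fatty acid binding protein DM02721P1 with a mean of 5303 in Ag+ and 4439 in S-SiO2-NW, against 2534 in Control, and transgelin DM01598P3 with 3628 and 4301, against 2425, so it says little of the others. None of the 15 was at 0 on any array. The part of muscle content in the pump values was not tested.

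Muscle myosin heavy chain (DM00704P3) read 72.5 ± 7.51 in Ag+ and 189.2 ± 44.7 in S-SiO2-NW, against 405.8 ± 36.2 in Control (SD, n = 4 each). It was dim in Ag+, where it was at least 4.74-fold lower (limma adjusted p = 8.21e-06), and in S-SiO2-NW limma gave an adjusted p of 0.00407. Non-muscle or smooth-muscle myosin (DM01615P1) fell by 1.68 in Ag+ (limma adjusted p = 0.00187) and by 1.24 in S-SiO2-NW (0.0389), and beta actin (DM02014P1) fell by 1.26 (0.00623) and by 1.10 (0.0416). Muscle protein 20 (DM00734P2), a calponin-type protein in Drosophila, was dim in Ag+ and at least 1.6-fold lower there (limma adjusted p = 0.00904). It fell by 1.03 in S-SiO2-NW (limma adjusted p = 0.0299), where 3 of 4 arrays were dim. Of these 4, only muscle myosin passed in S-SiO2-NW without each array of that group and Control in turn; the others each lost the call on leaving out at least 5 of the 8 arrays 1 at a time, with adjusted p up to 0.127. These 4 had the largest Ag+ differences among members that passed in a nanowire contrast, so their S-SiO2-NW calls follow from that choice. Their Ag+ differences were picked by size, so their Ag+ p-values are a description. Myosin heavy chains DM02391P3 (−1.897 in Ag+, −0.637 in S-SiO2-NW) and DM02533P1 (−1.775, −0.785) are not among these 4. Neither is DM02128P2, listed as similar to calponin/transgelin. Its mean log2 level was 10.858 ± 0.215 in Ag+ and 10.030 ± 0.319 in S-SiO2-NW, against 10.993 ± 0.202 in Control (SD, n = 4 each). Other members had positive values that did not pass. The actin-depolymerising factor DM02234P1 had 1.29 in Ag+ (limma adjusted p = 0.132) and 1.17 in S-SiO2-NW (0.258), DM02721P1 had 0.59 (0.613) and 0.13 (0.944), and DM01598P3 had 0.22 (0.672) and 0.17 (0.818).

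**Figure D5:**
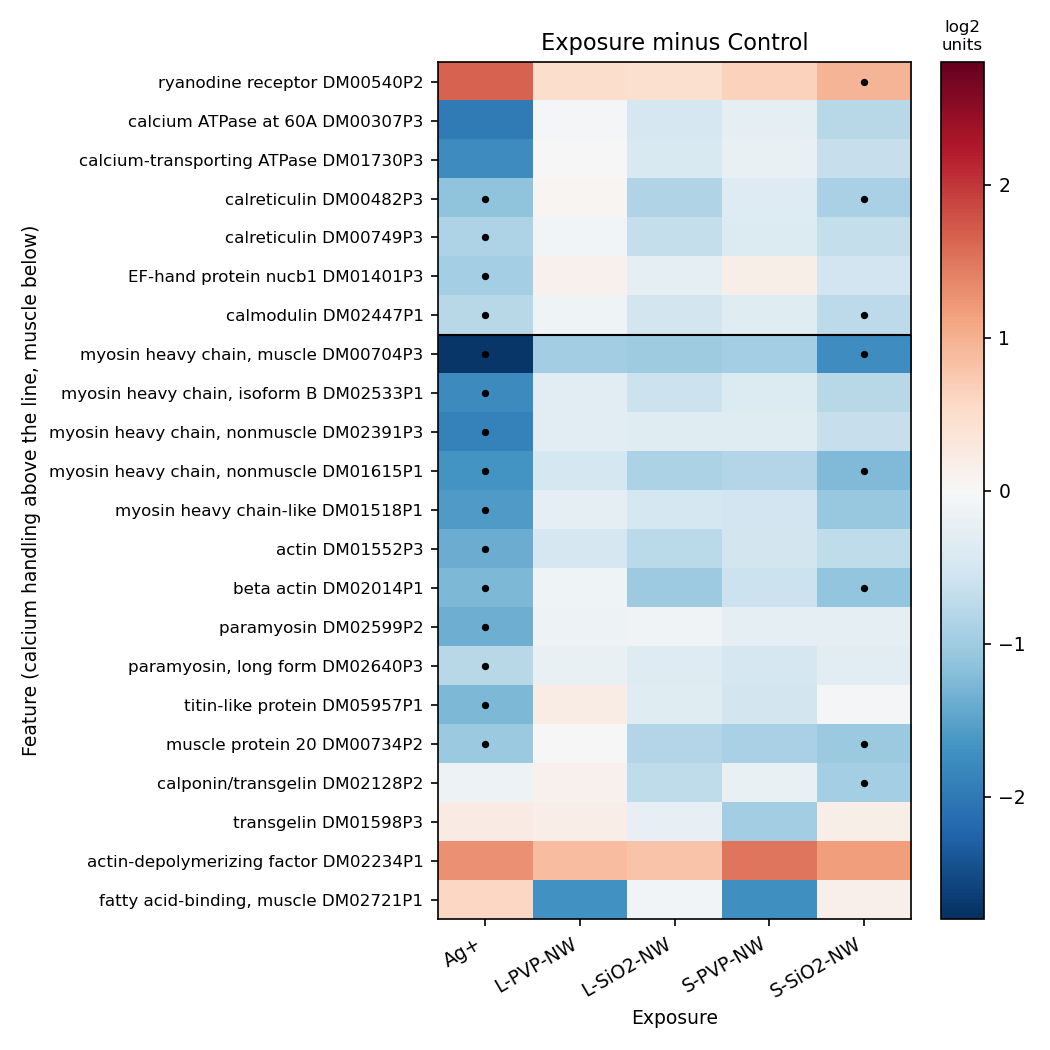
Difference from Control (log2, normalised, colour scale) of calcium-handling features above the line and muscle features below it, in each exposure. Dots mark an adjusted p under 0.05 in limma; none is drawn for the channel and the pump features in Ag+, where no test applies. The channel row runs from 0.45 to 1.65 and is above 0 in every column.

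In the authors' deposited table the ryanodine receptor has a log2 ratio over Control of 1.5 in Ag+ and 0.9 in S-SiO2-NW, and the pump one of −2.1 in Ag+. For the other exposures the table gives no ratio for either feature. The second pump feature DM01730P3 has −1.9 in Ag+ there.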

How the data were processed

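The deposited intensities are whole numbers, 1 per feature and array, from Cy3-labelled RNA of whole animals; per the labels 300 ng of total RNA was labelled with the Agilent Quick-Amp kit. Scanner, slide and settings for reading the images were not given in the sources used here. Values given as log2 ratios in the authors' deposited table rest, per the labels, on 16 array-by-array comparisons per exposure; how they were normalised and tested was not given in the sources used here. Expectation values in the authors' deposited table, of database searches, decided only which names count.

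Intensities were background-corrected with normexp (offset 50), log2-transformed and quantile-normalised; exact zeros on Ag+ 2 were treated as missing, none of them in the channel or pump. limma 3.58.1 (R 4.3.3) fitted 1 mean per group over 24 arrays, with eBayes (prior df 1.59), two-sided tests, and p-values adjusted by Benjamini-Hochberg across the 14338 features (threshold 0.05). Adjusted p-values come from this fit unless a permutation test is named. The offset pulls differences of dim features toward 0. Where all arrays of 1 side were dim, folds are lower bounds on the normalised scale, against the higher of the dim limit and the value. Correlations used deviations from group means and scipy 1.17.1 with numpy 2.4.6. The number of arrays limits precision.

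The members and lists were chosen with earlier results of these data known. Lists were made by words in the authors' table. Up to 4 features of each list are named, those with the largest Ag+ difference among features past the test in any nanowire contrast. Nanowire calls of features so named follow from this choice, and the Ag+ values of the muscle features so named were picked by size. A few others are named where they limit a list result. All members of the calcium release and pump lists are named, and the 5 described features nearest to each member. Deviations of same-numbered arrays of 5 groups correlated at r from −0.439 to 0.429, with r over 0.1 in 13 of 40 pairs. No values for arrays with different numbers were set beside these, so whether replicate numbers pair arrays was not tested. The main fit did not pair arrays by number. Alternatives were other background corrections, scalings, filters, array weights, covariates, a replicate block and leaving out each array. The test script was tested on simulated data.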

Additional observations from a re-analysis of the deposited data

How the results depend on the processing

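Across other settings the channel minus Control difference kept its sign in every exposure. In Ag+ the difference of the channel, given without a test, was 2.04 with median centring and 2.01 with a normexp offset of 10, chosen after seeing the data. In S-SiO2-NW the channel missed the threshold from the arrays compared alone (0.95, limma adjusted p = 0.111), with array weights (0.80, 0.129), with the array floor (0.93, 0.502) or the array upper quartile (0.52, 0.503; added after seeing the data) as a covariate, and with the replicate block (0.95, 0.0811); leaving out 1 array gave 0.814 to 1.089. The cause was not tested. The block also took S-SiO2-NW calls over all features to 481, against 679 without it, but could not be fitted for L-PVP-NW, whose replicates carry letters.

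Differences near 0 changed sign without passing a test. For the channel, L-SiO2-NW minus L-PVP-NW gave 0.295 with median centring, 0.009 with array weights and −0.249 to 0.123 leaving out 1 array, and L-PVP-NW minus S-PVP-NW gave 0.046 with the upper quartile and −0.312 to 0.036 leaving out 1 array. For the pump, L-PVP-NW minus Control gave 0.022 with array weights and −0.338 to 0.178 leaving out 1 array. S-PVP-NW minus Control gave 0.103 with median centring, 0.482 with the floor and 0.082 with the upper quartile. L-SiO2-NW gave 0.324 and 0.028 with the floor and upper quartile against Control, and 0.542 and 0.062 against L-PVP-NW. L-PVP-NW minus S-PVP-NW gave −0.120, −0.700 and −0.116 with median centring, floor and upper quartile. The interaction gave −0.043 with array weights and −0.140 to 0.276 leaving out 1 array. The within-group correlation of channel and pump was −0.345 with median centring and −0.214 with the upper quartile as a covariate, neither past the threshold.

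Counts over all features moved too. The 679 calls of S-SiO2-NW minus Control became 0 with the array floor and 5544 with a common 75th percentile, and 182 to 1120 leaving out 1 array; the share of higher calls was 59.5%, against 81.7% with median centring and 13.5% with that percentile, where the median of all features was −0.40. In Ag+ 2557 became 1410 with the floor, and 1734 to 2811 leaving out 1 array; higher calls made up 57.8%, against 73.3% with median centring. The other counts ran from 0 to 123 (4 in L-PVP-NW), 0 to 427 (138 in L-SiO2-NW), 1 to 309 (194 in S-PVP-NW), 0 to 1608 (686 for coating in long wires), 3 to 259 (129 for coating in short wires), 0 to 713 (308 for length with PVP), 0 to 24 (5 for length with silica) and 0 to 33 (3 for the interaction). List counts under other scalings and covariates and without single arrays were added after seeing the data.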

Other observations

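Other ion-pumping ATPases were read beside the calcium pump. Of 4 such features with a significant match, 2 fell and 0 rose by limma in Ag+ (median −0.64), where 7.53% of all features and 160 of 493 described features fell. In S-SiO2-NW 2 fell and 0 rose (median −0.63), where 1.92% of all features and 53 of the 493 fell. In the other groups 1 fell in L-SiO2-NW (median −0.52) and 0 passed in S-PVP-NW (median −0.83) and L-PVP-NW (median −0.21). A vacuolar proton ATPase subunit (DM00795P1), part of the pump that acidifies compartments, was dim in Ag+ and S-SiO2-NW, at least 1.77-fold lower in Ag+ (limma adjusted p = 0.000262) and at least 1.97-fold lower in S-SiO2-NW (0.00303). In the authors' deposited table its best protein match is in the alga Ostreococcus tauri, and 439 of 512 bases (85%) match a Daphnia pulex assembly. The other feature counted in both groups, a sodium pump alpha subunit (DM01589P2), was dim on all 24 arrays, so no size is given for it and its calls rest on signal near background. DM02354P1, a bright feature also listed as a sodium pump alpha subunit, matches an overlapping stretch of the same Daphnia pulex assembly. It did not pass in either group, with 0.29 in Ag+ (limma adjusted p = 0.507) and −0.45 in S-SiO2-NW (0.353). With the array floor as a covariate 0 of the 4 passed in S-SiO2-NW, and with the array upper quartile 1 did.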
